A study of Mus musculus with 7 samples.

Results

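The giant sarcomere genes of mouse chromosome 2, Ttn (titin) and Neb (nebulin), were examined for binding of the transcription factor Six4 in differentiating muscle cells. They were represented by 13 of the 58528 regions in a list of anti-Six4 peaks, that is, regions where immunoprecipitated chromatin was enriched in sequencing reads (ChIP-seq). The 13 were the peaks whose midpoint lay within fixed windows of the mm9 genome build, 12 of them in a 330 kb Ttn window (chr2:76520000-76850000) and 1 in a 270 kb Neb window (chr2:51980000-52250000). The cells were C2C12, a mouse myoblast line that fuses into myotubes when serum is lowered. The library came from the shNS line, which carries a stable control hairpin, taken after 24 h in differentiation medium and immunoprecipitated with anti-Six4. It is a single library of a single stable line with no replicate, and the other 6 libraries of the series (anti-Six4 in shSix4 knockdown cells, anti-Flag in Flag-Six4 and in parental cells, rabbit IgG, and input DNA from parental and shNS cells) were not analysed here. For this reason no condition was compared, and how many of the 13 peaks need Six4 was not tested.

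Titin spans from the Z-disc to the M-band of the sarcomere and acts as its molecular spring, while nebulin runs along the thin filament and helps set its length. Both are made in large amounts as skeletal muscle differentiates. Six4 is a homeodomain protein of the sine oculis family, which in muscle is known for the MEF3 site found in promoters of muscle genes. The peak list gives a chromosome, a start and an end for each peak, with no height, fold enrichment, p-value or summit, so position, width and place in the list were the values available. How many reads lie behind each peak is not known. No gene annotation of mm9 was used here, so exons, introns and gene starts could not be assigned to peaks. In the RefSeq gene table of another build (GRCm38.p6), the protein-coding neighbours were Plekha3 and Ccdc141 for Ttn, and Rif1 and Arl5a for Neb, and some peaks near the window edges may belong to sequence outside the named genes.

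The RefSeq promoter of Ttn is shown because this family is known for MEF3 sites in muscle promoters. It holds the 250 bases before the annotated start on the minus strand, at chr2:76982548-76982797 of GRCm38.p6, a build whose positions cannot be set beside the mm9 positions of the peaks. Capitals mark an E-box (CANNTG), the short site known to be bound by MyoD-family factors.

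Ttn: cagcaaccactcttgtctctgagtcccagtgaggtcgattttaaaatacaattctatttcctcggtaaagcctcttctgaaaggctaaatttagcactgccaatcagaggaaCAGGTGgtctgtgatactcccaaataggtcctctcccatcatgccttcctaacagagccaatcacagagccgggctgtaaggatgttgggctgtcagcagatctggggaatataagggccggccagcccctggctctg

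On either strand these letters held no MEF3 site (TCAGGTTTC), present in 0.387% of 32851 RefSeq promoters of the same length, and no match to a looser form (TCANNTTNC), present in 13.6%; the looser form includes every MEF3 site. They held 1 E-box, CAGGTG, starting 138 bases before the gene start; 66.2% of the promoters held at least 1 E-box. The exact letters TATAAA of a TATA box were also not found, and 12.4% of promoters had them. Other TATA-like spellings were not searched, and the letters shown hold tataag near the gene start. Matches are given as a description of the letters, and whether an anti-Six4 peak covers this promoter was not tested.

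The Ttn window carried 12 anti-Six4 peaks of 165 to 443 bp, which lay toward its ends and left the middle nearly empty. In bins of 33.0 kb from the low-coordinate edge, the first bin held 3 peaks, the next held 1, and the 3 bins up to 165 kb held 0. The bin from 165 to 198 kb held 1 and that from 198 to 231 kb held 0. The last 3 bins held 2, 4 and 1. The peaks thus fell into a stretch of 4 near the low-coordinate edge, a lone peak past the middle, and a stretch of 7 near the high-coordinate edge. RefSeq (GRCm38.p6) lists Ttn on the minus strand, which puts the start of the gene at its high-coordinate end in that build.

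The low-coordinate stretch of Ttn ran over 36.3 kb (chr2:76524712-76561031) and held both the widest and the earliest-listed peak of the window. Its first peak, 443 bp at chr2:76524712-76525154, was the widest, and stood on line 24911 of the list, 42.6% of the way down. The next was 166 bp wide at chr2:76537788-76537953 on line 52511 (89.7%). The earliest-listed of the 12 followed, 316 bp at chr2:76548667-76548982 on line 19410 (33.2%). The fourth, 176 bp, lay at chr2:76560856-76561031 on line 39734 (67.9%). Gaps between these 4 peaks were near equal, at 12.6, 10.7 and 11.9 kb.

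Beyond the low-coordinate stretch came 151 kb without a peak, 45.7% of the Ttn window, from 76561032 to 76711838. On chromosome 2 as a whole the median gap between neighbouring peaks was 13.8 kb, and 202 of 4467 gaps (4.52%) were at least as long as this one. It ended at a lone peak of 192 bp (chr2:76711839-76712030, line 29933, 51.1%). A further 58.4 kb without a peak followed, a length matched or passed by 12.9% of the chromosome's gaps. A stretch without a listed peak is one in which none passed the authors' threshold, which is not given in the sources used here, so it does not show an absence of binding.

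The high-coordinate stretch of Ttn held 7 peaks within 66.2 kb (chr2:76770466-76836702), and none was wider than 315 bp. Its first peak was that of 315 bp, at chr2:76770466-76770780 on line 38913 (66.5%). After it came a peak of the shortest width in the whole list, 165 bp, at chr2:76776737-76776901 on line 23028 (39.3%). On line number it came before 10 of the other 11 Ttn peaks, so in this window a narrow peak was not always a late one. The next, 171 bp, lay at chr2:76784905-76785075 on line 37052 (63.3%).

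The closest neighbours of the Ttn window were the next 3 peaks, with gaps of 2.55 and 4.49 kb. They were 262 bp at chr2:76807700-76807961 (line 34180, 58.4%), 186 bp at chr2:76810511-76810696 (line 55550, 94.9%) and 237 bp at chr2:76815191-76815427 (line 50525, 86.3%). The peak farthest along, and the last-listed, was 165 bp at chr2:76836538-76836702 on line 55551 (94.9%), 13.4 kb from the edge of the window. The median line was 66.5% in the stretch of 7 and 55.2% in the stretch of 4. With so few peaks these ranges overlapped almost wholly, 39.3 to 94.9% against 33.2 to 89.7%.

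The Neb window carried a single peak. It was 165 bp wide, the shortest width in the list, at chr2:52221513-52221677, and stood on line 55540 of the list (94.9%). It lay 242 kb from the low-coordinate edge, 28.4 kb from the other edge, so that 9 of 10 equal bins of the window were empty. The stretch before it ran for 264 kb, from 51957555 to 52221512, and began at a peak whose midpoint lay 22.5 kb outside the window. On chromosome 2, 104 of 4467 gaps (2.33%) were at least as long. A window of this length with a single peak must adjoin a long gap, so this share is not separate from the count. The stretch after it was 58.0 kb and ended outside the window at a wider and earlier-listed peak, 998 bp at chr2:52279668-52280665 on line 4391 (7.50%). That peak lay 30.2 kb past the window edge and is not among the 13.

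**Figure D1:**
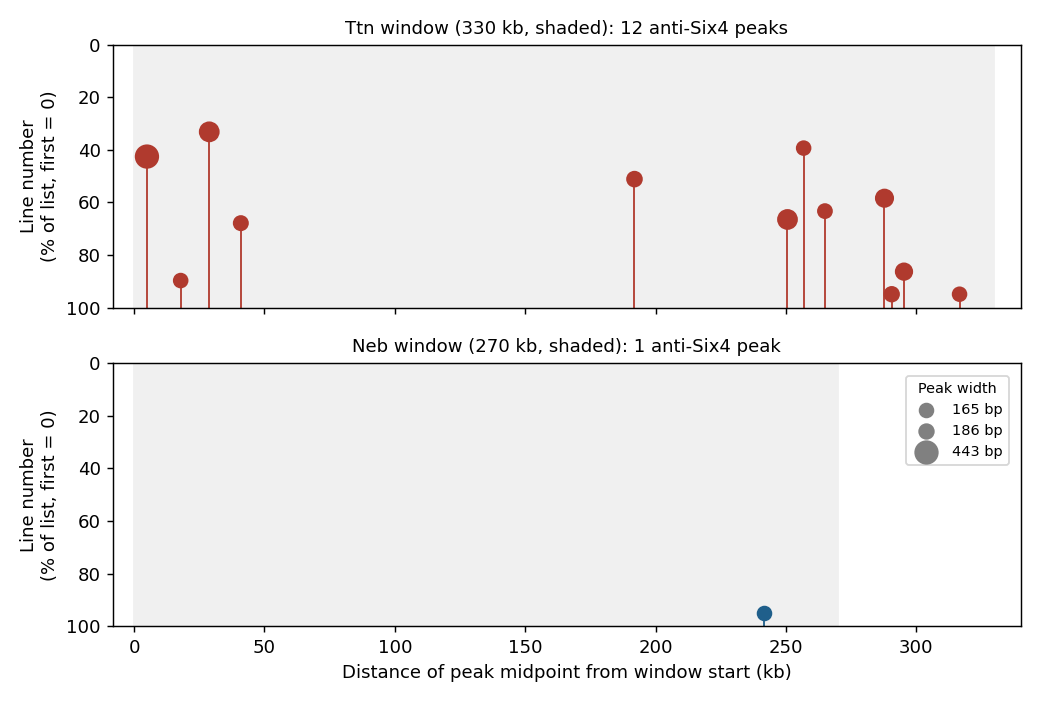
Position of each anti-Six4 peak in the Ttn window (upper panel, 12 peaks) and the Neb window (lower panel, 1 peak). The horizontal axis gives the distance of the peak midpoint from the window start in kb, the vertical axis the line number as a percent of the list with early lines at the top, and the point size the peak width; the Ttn peaks sit at both ends with 151 kb free of peaks between the fourth peak and the next, and no peak stands earlier than 33.2%.

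In number of peaks, neither the Ttn nor the Neb window stood apart from windows of equal length on chromosome 2. Windows were laid end to end outward from each locus, between the first and last peak of chromosome 2. Among 540 windows of 330 kb, 179 (33.1%) held at least as many peaks as the Ttn window. The median was 5 peaks (quartiles 1 and 15, highest 37), and 83 windows were empty. Among 661 windows of 270 kb, 220 (33.3%) held at most as many as the Neb window, of which 127 were empty. Their median was 4 peaks (quartiles 1 and 12, highest 25).

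Per Mb, the Ttn window had 36.4 peaks (exact Poisson 95% interval 18.8 to 63.5) and the Neb window 3.70 (0.0938 to 20.6), against 25 for chromosome 2 (24.3 to 25.8). The density of the Ttn window was 9.82 times that of the Neb window, with an exact 95% interval of 1.45 to 420. These intervals cover counting error only and treat peaks as independent. Since equal windows on the chromosome ranged from 0 to 37 peaks, they are narrower than the unevenness along it, and no p-value was computed. The contrast in covered sequence was larger, because the Neb peak was also short. Peaks covered 2794 bp (0.847%) of the Ttn window and 165 bp (0.0611%) of the Neb window, against 1.03% of chromosome 2.

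**Figure D2:**
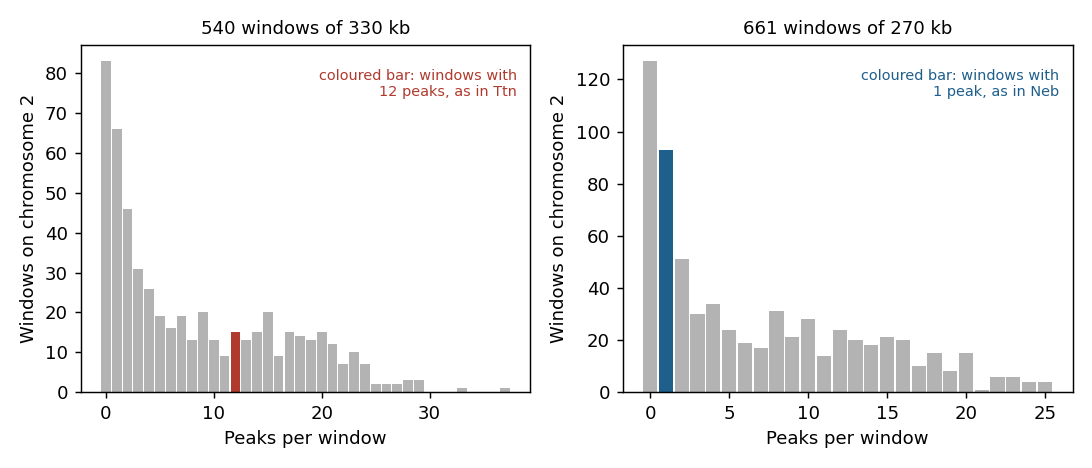
Number of anti-Six4 peaks in windows of 330 kb (left, 540 windows) and 270 kb (right, 661 windows) laid end to end on chromosome 2. Bars give the number of windows at each peak count, and the coloured bar holds the windows with the same count as the Ttn window (12 peaks) or the Neb window (1 peak), the locus itself included; counts were spread widely and 33.1% of windows reached the Ttn count.

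More peaks lay around Ttn than around Neb. The windows of equal length on either side of Ttn held 17 and 21 peaks, more than its own 12. Over the 6 windows on each side, counts ranged from 1 to 21. The window next to Neb on the low-coordinate side held 9 peaks and that on the other side 1, while the second window on the latter side held 15. Over 2 Mb on each side, Ttn had 70 peaks below and 40 above, and Neb had 25 below and 32 above. Early-listed peaks occurred in all 4 of these flanks. In the first 10% of lines were 7 of 70 and 1 of 40 peaks in the flanks of Ttn. In those of Neb they were 4 of 25 and 3 of 32. The Ttn window held 0 of 12 and the Neb window 0 of 1, against 9.98% of all chromosome 2 peaks. With so few peaks in the windows, these counts do not show a lack of early lines.

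**Figure D3:**
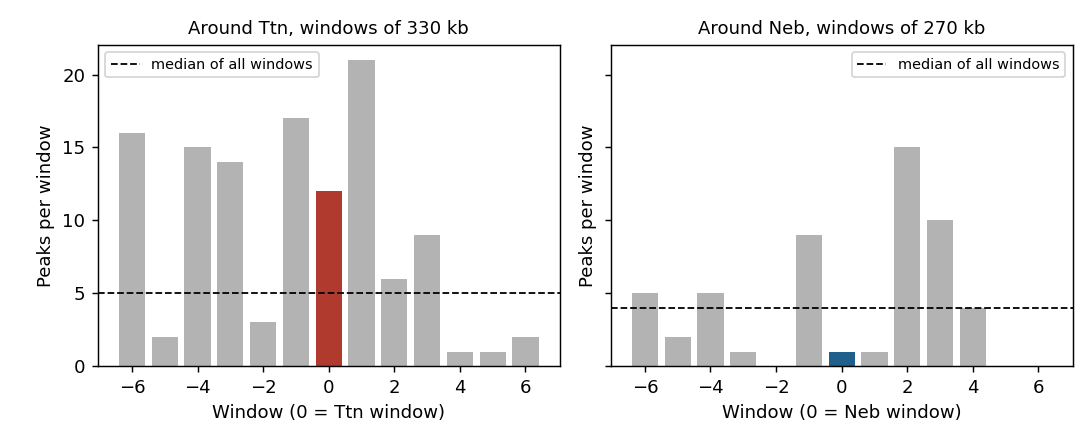
Anti-Six4 peaks per window in the locus window (0, coloured) and in 6 windows of the same length on each side, for Ttn (330 kb, left) and Neb (270 kb, right); the dashed line is the median of all such windows on chromosome 2. The Ttn window (12 peaks) lay between windows of 17 and 21, and the Neb window (1 peak) between windows of 9 and 1.

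By their medians, the Ttn peaks were narrower and later in the list than those of the chromosome. The 95% intervals of both medians include the chromosome's values. Those intervals treat neighbouring peaks as independent, so they cannot decide whether the window differs from the chromosome. The Neb peak had the shortest width in the list and stood in its last 10%. The 12 Ttn peaks had a median width of 189 bp (order-statistic 95% interval 166 to 315 bp), where chromosome 2 had 287 bp (quartiles 206 and 480 bp). Of the 12, 3 were wider than that median. None of the 12 reached 1 kb, a width that 6.67% of the 4468 peaks on chromosome 2 had. The shortest width, 165 bp, occurred in 2 of the 12 and in the Neb peak, against 4.68% of the chromosome's peaks.

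By line number, 3 of the 12 Ttn peaks were in the first 50% of the list (25%, exact binomial 95% interval 5.49 to 57.2%), against 53.0% of chromosome 2 peaks. The Neb peak was not. The Ttn interval includes the chromosome's share, but like the others in this paragraph it treats neighbouring peaks as independent. The first 10% of lines held 0 of the 12, which allows up to 26.5%, against 9.98% of the chromosome's peaks. The last 10% held 2 of the 12 (16.7%) and the Neb peak, against 7.34%. The median line of the Ttn peaks was 64.9% of the list (order-statistic 95% interval 42.6 to 89.7%), and that of chromosome 2, 48.6%, lay within this interval.

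What the line order measures is not given in the sources used here, and it did not separate all lines. The list was cut into 2016 consecutive blocks, each defined as a run of lines in order of chromosome name and start. Short blocks of this kind arise in any order, and the median block had 3 lines. Blocks of at least 100 lines held 72.2% of the list, and the longest had 2963 lines. All 13 peaks lay in blocks of 320 to 2905 lines, 11 blocks in all. The Neb peak and 2 Ttn peaks (those of 186 bp and 165 bp at 94.9%) were among the 84 chromosome 2 peaks of 1 block, lines 54829 to 56234. Within a block the line number followed position, so the order of these 3 (lines 55540, 55550 and 55551) holds nothing beyond their coordinates. Replacing each line number by the middle of its block left the Ttn median at 64.8%.

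**Figure D4:**
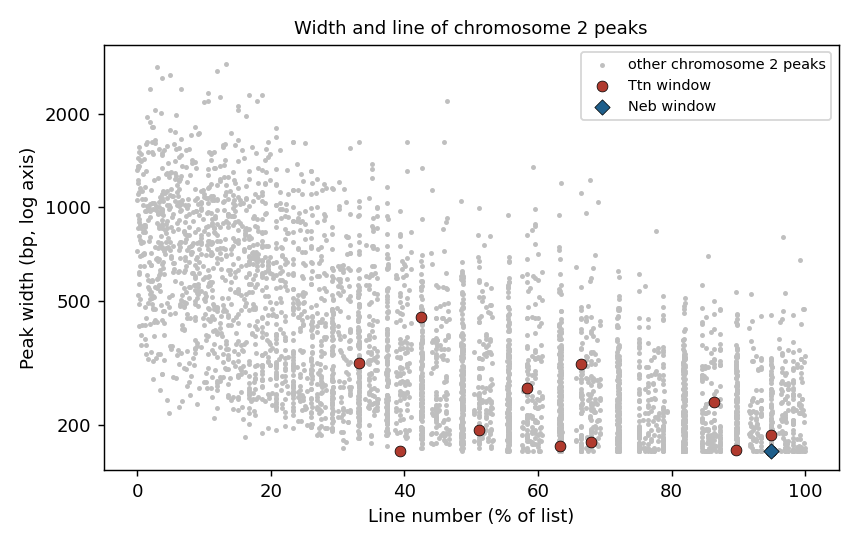
Width in bp (vertical, log axis) against line number as a percent of the list (horizontal) for the 4468 peaks of chromosome 2, with the 12 peaks of the Ttn window as red circles and the peak of the Neb window as a blue diamond, which covers the last Ttn circle at 165 bp and 94.9%. Grey points form vertical bands because each ordered block lists its chromosome 2 peaks side by side; the coloured points lie at 33.2% or later and at 443 bp or less.

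Windows with a like number of peaks were then compared with Ttn, on measures chosen after its values had been seen. Among the other 64 windows of 330 kb with 10 to 14 peaks, the median of the median widths was 282 bp, and in 1 it was as low as the 189 bp of Ttn (1.56%). The widest peak was 443 bp or less in 4 (6.25%), the median over windows being 1192 bp. The earliest line was at 33.2% or later in 5 (7.81%), the median over windows being 3.79%. In 3 windows the widest peak was as narrow and the earliest line as late. A gap between neighbouring peaks of at least 151 kb was found in 2 (3.12%). The other 2 measures lay nearer the middle of these windows, since 17 (26.6%) had as late a median line and 15 (23.4%) had 7 neighbouring peaks within 66.2 kb. These shares depended on which windows were taken. Among the other 178 windows with at least 12 peaks, up to 37, the earliest line was as late in 1 (0.562%), the widest peak as narrow in 1 (0.562%), and 0 had both. The median width was as low in 1 (0.562%), and a gap was as long in 2 (1.12%). As late a median line was found in 15 (8.43%), and 7 neighbouring peaks within 66.2 kb in 118 (66.3%). A window with more peaks has more chances of an early line, a wide peak and a tight group.

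The Neb window had 92 others like it with exactly 1 peak. Their peaks had a median width of 184 bp and a median line of 72.1%. Of the 92, 18 (19.6%) were 165 bp wide and 16 (17.4%) stood as late by line number. The block of the Neb peak held 8 of the 92, which line number set before or after it by position alone.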

How the data were processed

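Chromatin was cross-linked with formaldehyde and sheared by sonication, per the labels' protocols. The authors deposited the peaks as 3 columns with no header, and the deposited values are coordinates, with no score. The submitters' processing notes name Bowtie, Picard, bedtools, MACS2 version 2.0 and the mm9 build, without roles or parameters, and the threshold and control library are not stated there. Starts, counted from 0 in the file, are printed from 1. Read depth is unknown.

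Peaks were assigned to a window by midpoint. Windows of equal length lay wholly between the first and last peak of chromosome 2 and include gene-poor sequence and assembly gaps. Intervals (95%) are exact Poisson for counts, Clopper-Pearson for shares and the density ratio, and order-statistic for medians. Window counting, merging and block detection were tested on simulated data. The members, windows and lists were chosen with earlier results of these data known. The rule for named peaks was to give all of a window with at most 15, which held for both; planned counts at partner genes needed mm9 annotation and were not run. Promoter sequences are from RefSeq (GRCm38.p6), matched by symbol for 1 of the 2 genes. Alternatives were overlap in place of midpoint, merging of peaks under 500 bp apart, the first 50% of lines, a minimum width, windows shortened by 5% at each end and other window layouts. Python 3.11.15 was used with scipy 1.17.1, numpy 2.4.6, matplotlib 3.10.9 and pandas 2.3.3.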

Additional observations from a re-analysis of the deposited data

How the results depend on the processing

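Of 32 recomputed values, 24 stayed within the limits set, which were 1.5 times for counts and the 95% interval for shares and medians (for Neb, an equal value); the 2 that used block middles were chosen after seeing the data. The Ttn count was 12 by overlap or after merging and 10 in a shortened window, but 3 in the first 50% of lines and 3 with peaks below the list's median width removed, while the Neb count was 0 under both. The share of equal windows with at least as many peaks as Ttn moved from 33.1% to 39.2% when empty windows were left out and to 45.6% in the first 50% of lines, and lay between 29.7% (all autosomes) and 32.9% otherwise. For Neb it was 80.8%, by construction 100% under the same 2 settings, and 79.7 to 80.8% otherwise. The share of windows with at most as many peaks as Neb (33.3%) was not recomputed under these settings. It depends on empty windows: of its 220 windows 127 were empty, and among the 534 windows with at least 1 peak, 93 held exactly 1. No paired analysis was possible because there was 1 library. Read depth is unknown, so weaker sites in either window may have gone uncalled.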
